A study of Mus musculus with 8 samples.

Results

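The 4 connexin genes of the vessel wall, Gja1, Gja4, Gja5 and Gjc1, were described in the endothelial cells of mouse lung carcinomas. They were chosen by their gene symbols, and each symbol matched 1 of the 35756 rows of the deposited gene table. All 4 had enough counts to be tested.

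There were 8 libraries, each taken as 1 tumor-bearing mouse. The methods give 4 per group, whereas a figure legend of the paper gives a larger number. The group Tie2-CreERT2;PPARβ/δ + Tamoxifen held 4 of the libraries and the group Tie2-CreERT2;PPARβ/δ + vehicle the other 4. The methods give the mice as PPARβ/δ-flox+/-, with 4 back-crosses of the Tie2-CreERT2 line onto C57BL/6J. Tie2-CreERT2 is a Cre recombinase made in Tie2-expressing cells, mainly endothelial but also some blood cells, and Tamoxifen activates it and so switches on additional PPARβ/δ, a nuclear receptor encoded by Ppard. The mice received 33 mg/kg Tamoxifen per day for 1 week or the sunflower oil in which it was dissolved, LLC1 Lewis lung carcinoma cells followed 1 week later, and tumors grew for 3 weeks before their endothelial cells were taken out with beads against CD31. Both groups carried the same alleles according to the methods, although the labels call the vehicle mice wild-type, so actions of Tamoxifen, of active Cre and of additional PPARβ/δ cannot be told apart. Counted reads summed to between 19730726 and 24884372 per library. Ppard itself lay at 122, 70.8, 120 and 118 CPM (counts scaled to the effective library size and to 1e+06) in the Tamoxifen libraries Tax2604, Tax2689, Tax2382 and Tax2455, and at 74.0, 88.2, 53.3 and 81.8 CPM in the vehicle libraries oil2453, oil2315, oil2653 and oil2368. The groups overlapped through Tax2689 (log2 fold change 0.53, standard error 0.25, adjusted p = 0.46 by edgeR), and the sources used here do not say whether the additional copy is counted under this gene.

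Connexins are membrane proteins that assemble in rings to form hemichannels, and hemichannels of neighboring cells dock into gap junctions, through which ions and small molecules pass. In blood vessels such junctions couple endothelial cells to each other and, across the internal elastic lamina, to smooth muscle, and thereby spread changes of vessel tone along the wall. RefSeq lists the protein of Gja1 as Cx43, that of Gja4 as Cx37, that of Gja5 as Cx40 and that of Gjc1 as Cx45. Cx37 and Cx40 are best known from arterial endothelium, Cx43 from smooth muscle, fibroblasts, the heart and endothelium in disturbed flow, and Cx45 from vascular smooth muscle and the cardiac conduction system.

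In the deposited table Gja1 (ENSMUSG00000050953) lies on chromosome 10 from 56377300 to 56390419 on the plus strand, and Gja4 (ENSMUSG00000050234) on chromosome 4 from 127311421 to 127314039 on the minus strand. Gja5 (ENSMUSG00000057123) lies on chromosome 3 from 97032416 to 97053634 on the plus strand, and Gjc1 (ENSMUSG00000034520) on chromosome 11 from 102799579 to 102819700 on the minus strand. The bounds of Gja4 and Gjc1 are those of GENCODE M21 on GRCm38, whereas that annotation gives Gja1 and Gja5 other bounds. No other gene of the table overlaps a member. In GENCODE M21 the coding sequence lies in 1 exon in every coding transcript of Gja1, Gja4 and Gjc1, and in 1 or 2 exons in those of Gja5.

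Promoters are shown because the design was meant to raise PPARβ/δ, a transcription factor. Its action cannot be told apart here from those of Tamoxifen and active Cre. RefSeq's GRCm38.p6 table held 3 of the 4, each with 250 bases before and 50 bases after the start site. That of Gja1 is chr10:56377050-56377349 on the plus strand, with capitals for the AP-1 motif TGANTCA. That of Gja4 is chr4:127313990-127314289 on the minus strand and that of Gja5 is chr3:97032152-97032451 on the plus strand, both with capitals for the GC box GGGCGG, a motif of the Sp1 family.
Gja1: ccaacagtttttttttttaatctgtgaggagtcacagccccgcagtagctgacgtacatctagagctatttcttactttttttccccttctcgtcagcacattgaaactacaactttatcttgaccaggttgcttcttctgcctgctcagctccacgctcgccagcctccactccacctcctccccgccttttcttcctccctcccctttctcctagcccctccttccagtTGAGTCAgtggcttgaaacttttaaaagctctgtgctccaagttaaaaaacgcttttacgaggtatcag
Gja4: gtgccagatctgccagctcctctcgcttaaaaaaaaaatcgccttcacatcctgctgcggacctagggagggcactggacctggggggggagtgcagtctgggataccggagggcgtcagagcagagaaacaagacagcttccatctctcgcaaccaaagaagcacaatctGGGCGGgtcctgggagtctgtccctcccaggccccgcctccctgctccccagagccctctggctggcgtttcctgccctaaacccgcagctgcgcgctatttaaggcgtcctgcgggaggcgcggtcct
Gja5: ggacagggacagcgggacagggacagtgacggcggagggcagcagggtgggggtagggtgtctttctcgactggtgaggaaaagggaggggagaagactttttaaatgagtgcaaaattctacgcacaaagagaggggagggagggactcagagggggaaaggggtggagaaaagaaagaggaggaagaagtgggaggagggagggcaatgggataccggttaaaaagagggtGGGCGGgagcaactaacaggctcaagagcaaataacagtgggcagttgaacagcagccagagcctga

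The AP-1 motif of Gja1 starts at position -19 from the start site, and TGANTCA occurred on either strand in 7.81% of 32851 promoters of the same length. The GC boxes start at position -79 in Gja4 and at position -17 in Gja5, and 35.7% of the promoters held one. The hexamer AGGTCA, which nuclear receptors such as PPARβ/δ recognise, was in none of the 3 windows on either strand, and neither was TGGGAA, the core bound by the Notch effector RBPJ. AGGTCA was found in 16.3% of all promoters and TGGGAA in 25.6%. The direct repeat of AGGTCA with 1 base between, the element of PPAR dimers, was found in 0.0396% of promoters and includes matches to AGGTCA. A match is a run of letters and no site, and the absence of one concerns these windows alone.

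Across all genes, the quasi-likelihood test of edgeR, adjusted after Benjamini-Hochberg, called 0 of 14539 genes (0% called at an adjusted p under 0.05), with a lowest adjusted p of 0.0732 and 1590 genes (10.9%) at an unadjusted p under 0.05. DESeq2 called 574 of 14468 genes (3.97%), of which 550 were higher with Tamoxifen, and limma-voom called 0. Without oil2453, in which ribosomal protein genes took 20.6% of counts against 4.57% to 10.3% in the others, edgeR called 256 genes, and without oil2368 it called 31. None of the 4 connexins was called by edgeR, DESeq2 or limma-voom, and Gja4 alone was under an unadjusted p of 0.05 in edgeR. All 12 pan-endothelial markers were detected in every library, as were all 11 markers of mural cells, the pericytes and smooth muscle cells around the endothelium, 10 of them above the filter on low counts. Lyz2, a lysozyme of macrophages and neutrophils, stood at 3909 ± 838 CPM in the Tamoxifen group and 2983 ± 995 CPM in the vehicle group (SD, n = 4 each), compared to 856 ± 211 and 304 ± 83.2 CPM for Pecam1, which encodes CD31. Markers of endothelial and of myeloid cells were thus both present, and in bulk RNA fewer cells of a type and less RNA per cell cannot be told apart.

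Gja4, which encodes Cx37, was the member whose groups did not overlap in CPM. It lay at 12.4, 18.6, 13.7 and 10.2 CPM in the Tamoxifen libraries Tax2604, Tax2689, Tax2382 and Tax2455, and at 2.47, 0.51, 6.46 and 6.03 CPM in the vehicle libraries oil2453, oil2315, oil2653 and oil2368. Every Tamoxifen library was above every vehicle library, as for 853 of the 14539 genes tested (5.87%), and 2.01% of genes separated the other way. The Tamoxifen mean of 13.7 ± 3.56 CPM was 3.54 times the vehicle mean of 3.87 ± 2.86 CPM (SD, n = 4 each). In edgeR the log2 fold change was 1.82, with a standard error of 0.63, a 95% interval of 0.41 to 3.23 and an adjusted p = 0.319. DESeq2 gave an adjusted p = 0.0767. The exact two-sided permutation test gave p = 0.0286, the smallest that 4 against 4 libraries allow. The lowest level, in oil2315, rested on 11 reads, with an exact (Clopper-Pearson) 95% interval of 0.25 to 0.91 CPM that covers counting error only. Without that library the log2 fold change was 1.45, with an adjusted p = 0.241 in edgeR.

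Gja5, which encodes Cx40, was higher on average with Tamoxifen, but its groups overlapped. Its levels were 5.30, 13.5, 6.79 and 2.15 CPM in Tax2604, Tax2689, Tax2382 and Tax2455, and 0.54, 0.60, 2.95 and 4.66 CPM in oil2453, oil2315, oil2653 and oil2368. Tax2455 lay below oil2653 and oil2368, and the other 3 Tamoxifen libraries lay above all vehicle libraries. The means of 6.93 ± 4.78 and 2.19 ± 1.99 CPM (SD, n = 4 each) gave a ratio of 3.17 and a log2 fold change of 1.65, with a standard error of 0.77 and a 95% interval of -0.08 to 3.38. Gja5 was not called (adjusted p = 0.461 in edgeR and 0.282 in DESeq2), and the exact two-sided permutation test gave p = 0.114. Its unadjusted p was 0.0589 in edgeR, 0.0273 in DESeq2 and 0.0451 in limma-voom. The vehicle level rested on as few as 9 reads, in oil2453, with an exact 95% interval of 0.25 to 1.03 CPM. The log2 fold change was 1.10 without Tax2689, the highest library, and 2.31 without oil2368, the highest vehicle library, where that of Gja4 was 2.11.

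Gja1, which encodes Cx43, was the most abundant member, with 5016 to 14512 reads per library. It lay at 688, 367, 398 and 556 CPM in Tax2604, Tax2689, Tax2382 and Tax2455, and at 544, 438, 215 and 388 CPM in oil2453, oil2315, oil2653 and oil2368. The ranges of the groups overlapped broadly, with the highest library treated and the lowest untreated. The Tamoxifen mean was 502 ± 149 CPM and the vehicle mean 396 ± 137 CPM (SD, n = 4 each). The log2 fold change of 0.34, with a standard error of 0.33 and a 95% interval of -0.41 to 1.09, was within the spread between libraries (adjusted p = 0.703 in edgeR; exact two-sided permutation test, p = 0.371). Counting error was small here, since the exact 95% interval in oil2653, the library with the fewest reads, was 209 to 221 CPM.

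Gjc1, which encodes Cx45, varied within both groups more than between them. Its levels were 19.1, 22.3, 7.85 and 34.6 CPM in Tax2604, Tax2689, Tax2382 and Tax2455, and 33.6, 13.8, 13.4 and 13.1 CPM in oil2453, oil2315, oil2653 and oil2368. Tax2455 and oil2453 were nearly equal and highest, Tax2382 was lowest, and the other 3 vehicle libraries lay close together. The group means were 21.0 ± 11.0 and 18.5 ± 10.1 CPM (SD, n = 4 each). The log2 fold change was 0.18 with a 95% interval of -0.87 to 1.24 (adjusted p = 0.903 in edgeR; exact two-sided permutation test, p = 0.657). Its sign turned to -0.15 when Tax2455 was left out.

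**Figure D1:**
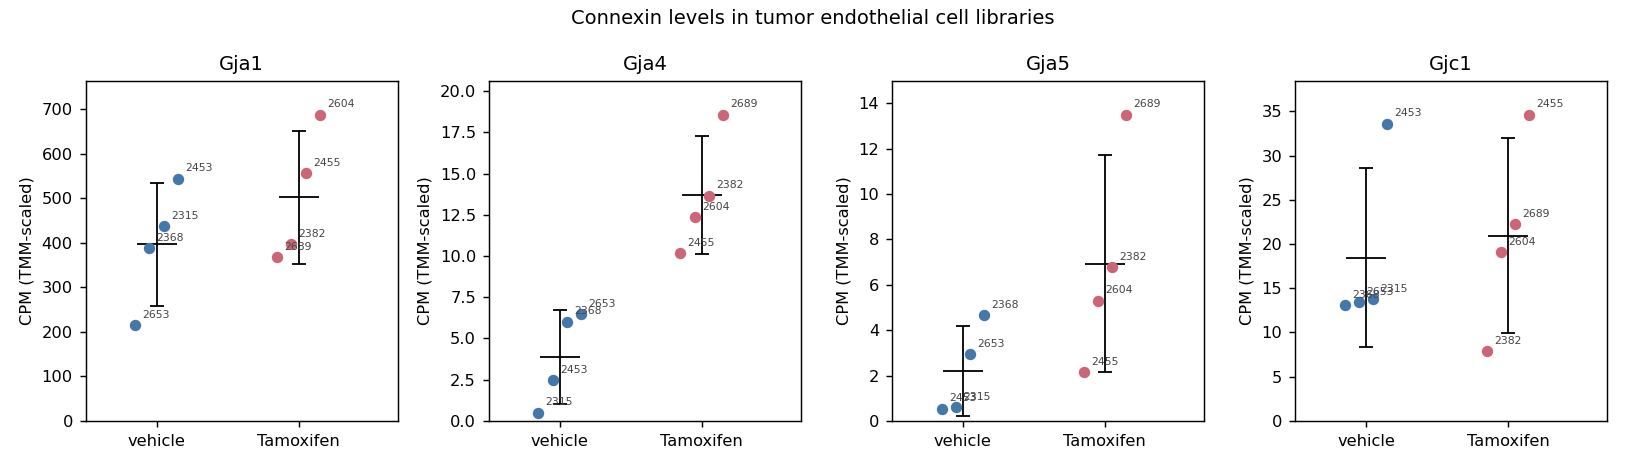
Level of each connexin in CPM (linear axis from 0) in 4 vehicle and 4 Tamoxifen libraries. Points are libraries labelled with their numbers, and horizontal marks with bars give the mean ± SD. Only for Gja4 do the groups separate, at 10.2 to 18.6 CPM with Tamoxifen and 0.51 to 6.46 CPM with vehicle.

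To compare the genes with each other, levels per length were taken as the deposited FPKM (fragments per kilobase and per 1e+06 reads). Gja1 ranged from 71.4 to 229 FPKM over the 8 libraries, Gjc1 from 3.81 to 19.5, Gja4 from 0.32 to 11.99 and Gja5 from 0.23 to 8.36. Gja1 was highest in 8 of 8 libraries and held 79.7% to 94.8% of the summed FPKM of the 4 genes. The order Gja1, Gjc1, Gja4, Gja5 was found in 6 of 8 libraries. In oil2315 Gja5 was just above Gja4, and in Tax2382 Gja4 was above Gjc1. Between neighbors in this order, the ranges of Gjc1 and Gja4 overlapped, as did those of Gja4 and Gja5, whereas those of Gja1 and Gjc1 did not. Within libraries, Gjc1 was above Gja4 in 7 of 8, and Gja4 was above Gja5 in 7 of 8.

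The FPKM of Gja1 and Gja4 corresponded to the listed gene lengths of 3105 and 1685 bases. Those of Gja5 and Gjc1 implied 1757 and 1953 bases, shorter than the listed 3109 and 3413. With the listed lengths instead, Gjc1 was above Gja4 in 5 of 8 libraries rather than 7, and Gja4 was above Gja5 in 8 rather than 7. The places of Gja1 at the top and of the other 3 far below it were the same by both lengths.

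**Figure D2:**
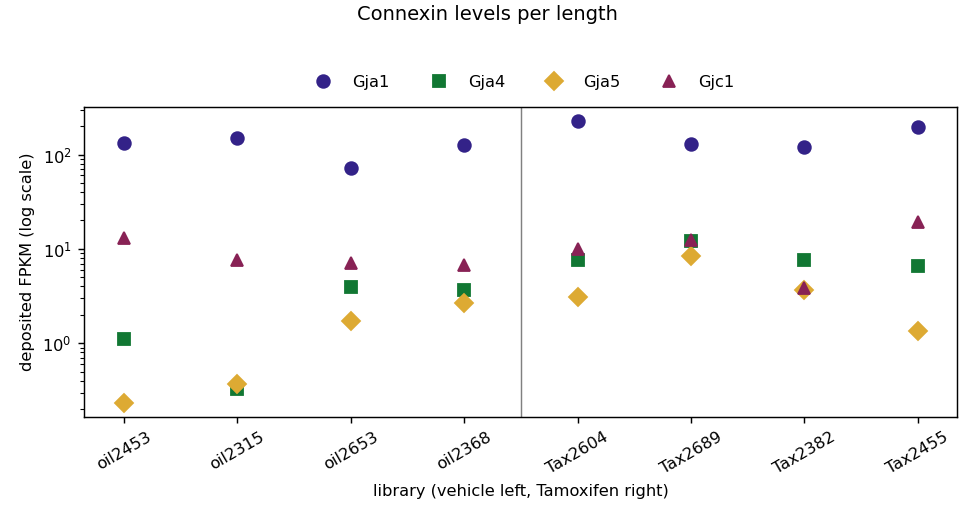
Deposited FPKM (log axis) of the 4 connexins in each library, vehicle libraries on the left and Tamoxifen libraries on the right. Gja1 stands at 71.4 to 229 FPKM above the other 3 genes in 8 of 8 libraries, and Gja4 and Gja5 lie lowest in oil2453 and oil2315.

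Ratios of reads between members within a library do not depend on how libraries are scaled. The log2 ratios tested below add a pseudocount to CPM, and so depend on it and on scaling at low Gja4 and Gja5 levels. Per Gja4 read there were 55.6, 19.8, 29.1 and 54.8 Gja1 reads in Tax2604, Tax2689, Tax2382 and Tax2455, and 220, 859, 33.2 and 64.4 in oil2453, oil2315, oil2653 and oil2368. The high ratios of oil2453 and oil2315 came with few Gja4 reads, 41 and 11, oil2368 was above the 4 Tamoxifen libraries as well, and oil2653 was among them. On the log2 scale with a pseudocount of 0.5 CPM, Gja1 to Gja4 was 6.78 ± 1.69 with vehicle and 5.13 ± 0.72 with Tamoxifen, a difference of -1.65 (SD, n = 4 each; exact permutation test, two-sided, p = 0.114, adjusted over 6 pairs 0.343). The largest difference among the 6 pairs was that of Gja4 to Gjc1, 1.89 (-0.45 ± 1.02 with Tamoxifen and -2.35 ± 1.53 with vehicle; exact permutation test, p = 0.114, adjusted 0.343). Gja4 and Gja5 encode proteins best known from arterial endothelium. There were 1.38 to 4.73 Gja4 reads per Gja5 read with Tamoxifen and 0.85 to 4.56 with vehicle. Their log2 ratio differed by 0.46 between the groups (exact two-sided permutation test, p = 0.371, adjusted 0.446). None of the 6 pairs passed the adjusted threshold, with adjusted p-values of 0.343 to 0.543. The difference of Gja1 to Gja4 was -1.88 with a pseudocount of 0.1 CPM, -1.18 with 2 CPM and -1.49 on the deposited FPKM.

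The libraries also differed in the levels of vessel cell markers. The summed level of the 12 pan-endothelial markers was 2169 to 4038 CPM with Tamoxifen and 356 to 1548 CPM with vehicle, and 9 of the 12 were higher in every Tamoxifen library. The summed level of the 11 mural markers was 249 to 448 CPM with Tamoxifen and 35.1 to 128 CPM with vehicle. Of the 10 tested mural markers, 7 were higher in every Tamoxifen library. Among all genes tested, 5.87% were higher in every Tamoxifen library. No marker of these lists was at 0 in any library. Cdh5, the cadherin of endothelial junctions, was at 656 ± 248 and 98.3 ± 52.4 CPM, and Pdgfrb, the platelet-derived growth factor receptor of pericytes, at 31.5 ± 8.22 and 9.40 ± 3.16 CPM (SD, n = 4 each). Acta2, the smooth muscle actin, overlapped between the groups at 36.6 ± 6.53 and 21.0 ± 11.6 CPM. The summed level of the 7 fibroblast markers overlapped, at 395 to 3048 CPM with Tamoxifen and 1082 to 2961 CPM with vehicle. The part of these marker differences in the levels of Gja4 and Gja5 was not tested beyond the ratios to markers given next.

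The members can be set beside these sums library by library. In the vehicle group the libraries lowest in Gja4, oil2315 and oil2453, also had the lowest mural sums, 35.1 and 82.3 CPM. The mural sums of oil2653 and oil2368 were 113 and 128 CPM. In the pan-endothelial sum, oil2315 was the lowest vehicle library at 356 CPM, but oil2453 was the highest at 1548 CPM. Among the Tamoxifen libraries, Tax2689 was highest in both Gja4 and the mural sum (448 CPM), but Tax2382, the next in Gja4, had the lowest mural sum of the 4 (249 CPM). The libraries highest in Gjc1, oil2453 and Tax2455, had the highest fibroblast sums, 2961 and 3048 CPM, and Tax2382, lowest in Gjc1, had the lowest, 395 CPM. The same 2 libraries also had the lowest sums of macrophage markers, 2708 and 5632 CPM, and the highest of tumor epithelial markers, 737 and 173 CPM, and Tax2382 had the highest macrophage sum, 10486 CPM. Within the fibroblast list, Col3a1 made up 2485 CPM of the sum in oil2453, whereas Col1a1 and Col1a2 were at 35.5 and 29.6 CPM there, below their levels in 6 of the other libraries. As a description, log2 deviations from the group means were correlated with the mean deviation of each list over the 8 libraries (Pearson's r). For Gja4, r was 0.90 with mural, 0.71 with lymphocyte, 0.61 with pan-endothelial and 0.065 with fibroblast markers. For Gjc1, r was 0.86 with fibroblast, -0.85 with macrophage, 0.17 with pan-endothelial and 0.16 with mural markers. Which of these lists goes with Gja4 or with Gjc1 was not tested.

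**Figure D3:**
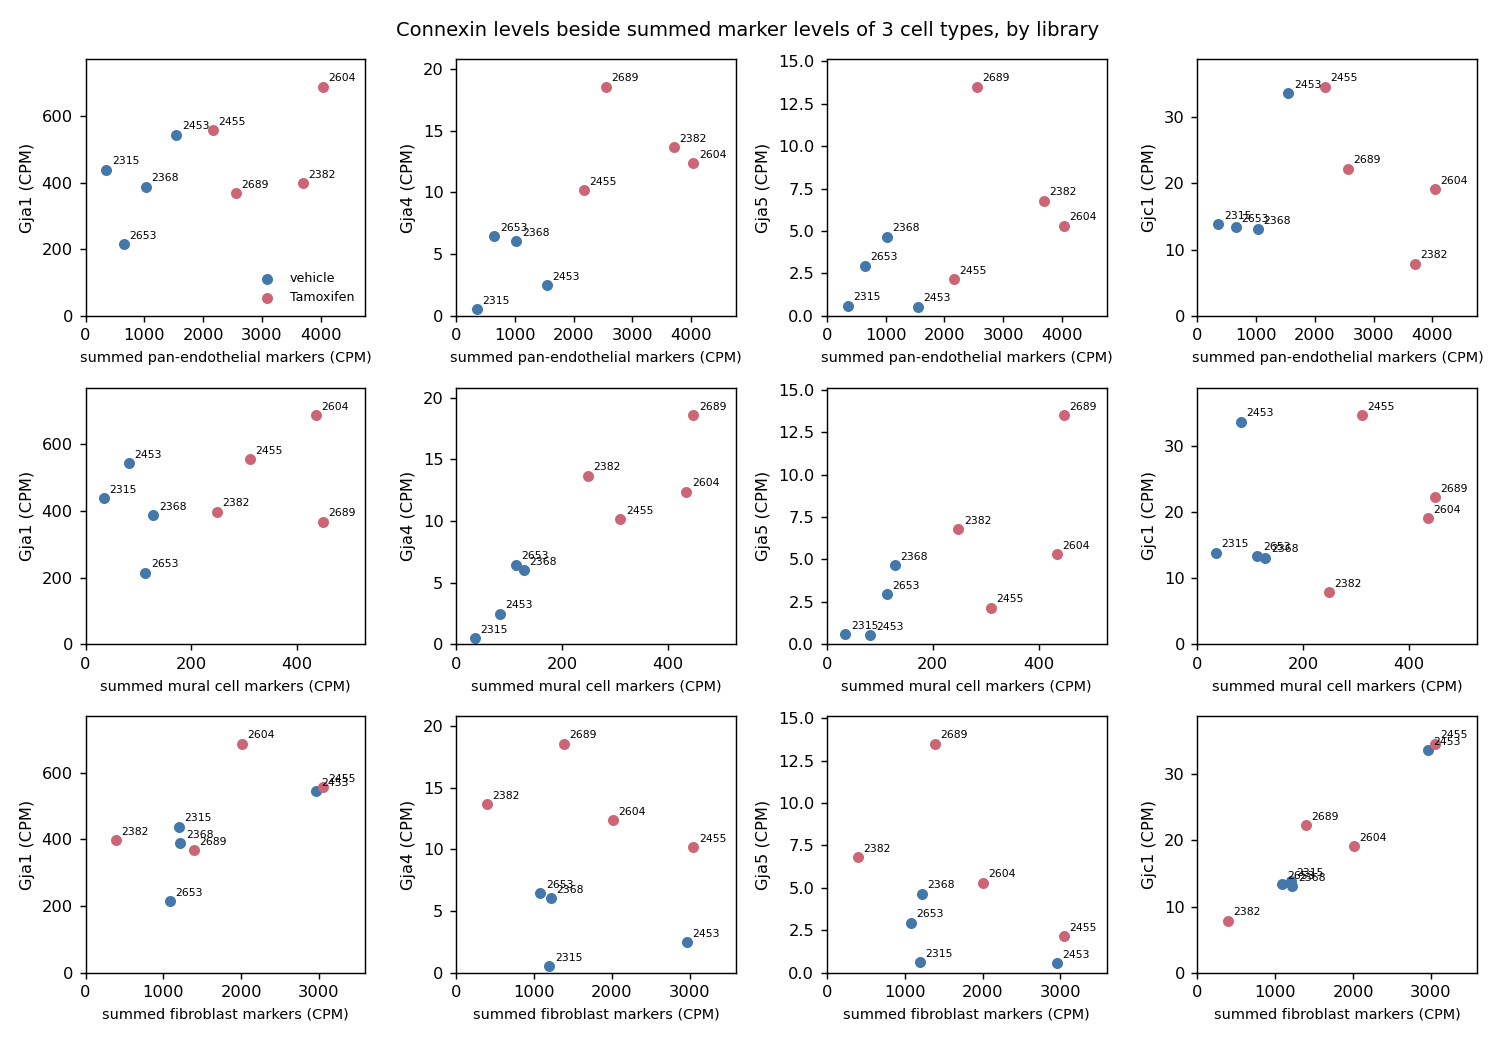
Level of each connexin (CPM, columns) against the summed CPM of pan-endothelial, mural and fibroblast markers (rows), 1 point per library labelled with its number, on linear axes from 0. Gjc1 is highest in the libraries oil2453 and Tax2455, which have the highest fibroblast sums of 2961 and 3048 CPM. Gja4 is lowest in the library oil2315, which has the lowest mural sum of 35.1 CPM and the lowest pan-endothelial sum of 356 CPM.

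Relative to the pan-endothelial markers, taken as their mean log2 CPM in the same library, Gja1 stood at 1.59, 1.35, 1.08 and 2.27 log2 units in Tax2604, Tax2689, Tax2382 and Tax2455. In oil2453, oil2315, oil2653 and oil2368 it stood at 2.82, 5.08, 2.77 and 2.93. Every Tamoxifen library was thus below every vehicle library on this scale, a difference of -1.83 log2 units (exact two-sided permutation test, p = 0.0286, the lowest possible; adjusted over 8 values 0.114). On this scale 62.4% of all genes tested separated downward in the same way. Relative to the mural markers Gja1 was also lower in every Tamoxifen library, with a difference of -1.54 log2 units (exact permutation test, p = 0.0286, adjusted 0.114), as were 76.1% of all genes tested. Neither passed the adjusted threshold, which a p of 0.0286 cannot reach among 8 values unless others are as small.

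For Gjc1 the difference was -2.07 log2 units relative to the pan-endothelial markers and -1.79 relative to the mural markers (exact two-sided permutation test, p = 0.0571 for both, adjusted 0.114). Its groups overlapped on both scales, through Tax2455. Gja4 differed by -0.18 log2 units relative to the pan-endothelial markers (exact permutation test, p = 0.83) and by 0.11 relative to the mural markers (p = 0.8 from the same exact test). Its within-group SD of 0.52 and 1.07 log2 units with Tamoxifen and vehicle exceeded the first of these differences. For Gja5 the difference was -0.63 log2 units relative to the pan-endothelial markers and -0.35 relative to the mural markers (exact permutation test, p = 0.429 and 0.629). The same marker mean was subtracted from every member in a library. The order of the members' differences, from Gja4 over Gja5 and Gja1 to Gjc1, is therefore carried over from their CPM and is no separate result.

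The fit across all genes was also scaled to these markers. Scaling to the pan-endothelial markers moved the median log2 fold change of all genes to -2.59, and scaling to the mural markers moved it to -2.33. All 4 members then had negative values, -2.21 and -2.06 for Gja1 (adjusted p = 0.00471 and 0.00158 in edgeR), -1.96 and -2.12 for Gjc1 (0.0134 and 0.00093), -0.23 and -0.0063 for Gja4 (0.783 and 0.993) and -0.51 and -0.23 for Gja5 (0.559 and 0.751). The calls of Gja1 and Gjc1 were shared by most genes, since 13209 and 13343 of the 14539 genes were called under these scalings. Relative to the median of all genes, Gja4 was 2.35 and 2.32 higher, Gja5 2.08 and 2.10, Gjc1 0.62 and 0.21 and Gja1 0.38 and 0.27.

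**Figure D4:**
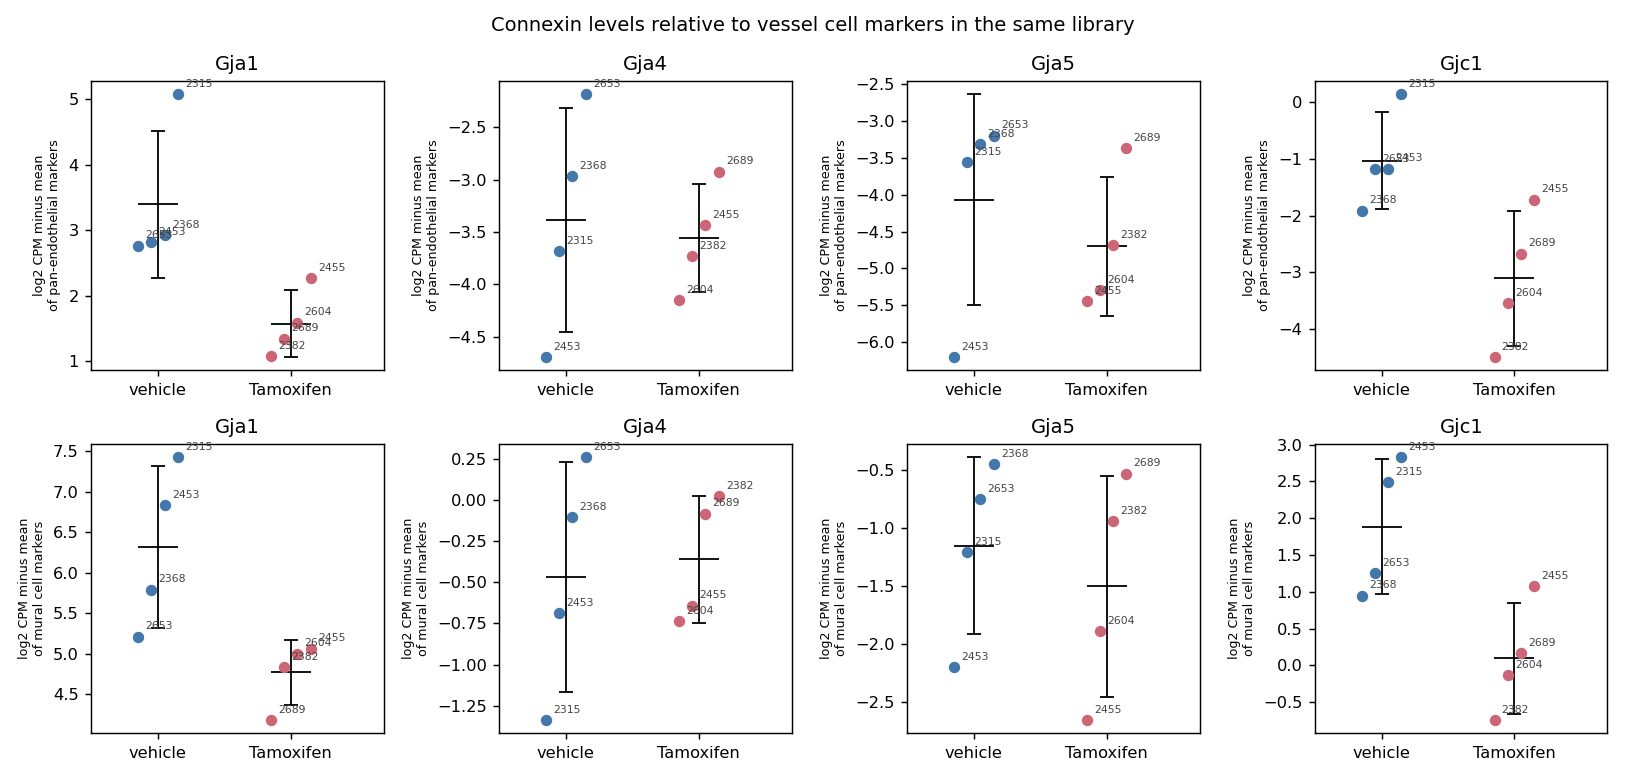
Log2 CPM of each connexin minus the mean log2 CPM of the pan-endothelial markers (top) and mural markers (bottom) in the same library. Points are libraries labelled with their numbers, marks with bars give the mean ± SD of 4 libraries, and the axes do not start at 0. Gja1 separates the groups on both scales (differences of -1.83 and -1.54), as do 62.4% and 76.1% of all genes tested, whereas Gja4 overlaps on both (-0.18 and 0.11).

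The other connexins were scarce. Of the 20 connexin genes in the table, the 16 outside the 4 members had 317 reads in all, compared to 84478 for the members, out of 176210318 counted reads. Of the 16, 4 had 0 reads in all 8 libraries, which allows a level of up to 0.017 CPM over the pooled libraries (3 counts), and 11 more had at most 18 reads in any library and were below the filter. Gjb2, which encodes a connexin of epithelia and the inner ear, was the only one tested, at 0.55 ± 0.45 CPM in the Tamoxifen group and 0.36 ± 0.21 CPM in the vehicle group (SD, n = 4 each; log2 fold change 0.56, adjusted p = 0.791 in edgeR). Among the pannexins, relatives in function that form channels without docking into gap junctions, Panx1 was the only one of 3 tested. Panx1 releases ATP from cells, and it lay at 20.3, 19.4, 32.6 and 14.8 CPM in Tax2604, Tax2689, Tax2382 and Tax2455 and at 16.2, 20.2, 40.9 and 22.5 CPM in oil2453, oil2315, oil2653 and oil2368. Its groups overlapped (log2 fold change -0.20, standard error 0.35, adjusted p = 0.855 in edgeR).

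Of 9 proteins that bind connexins or direct their traffic and turnover, edgeR called 0 and 3 were under an unadjusted p of 0.05. DESeq2 called 1 of the 9, higher with Tamoxifen. Over all genes tested, edgeR called 0%, 10.9% were under that unadjusted p and DESeq2 called 3.97%. The median log2 fold change of the 9 was 0.11, compared to -0.03 for all genes tested, and -2.42 and -2.24 when scaled to pan-endothelial and mural markers, compared to -2.59 and -2.33. Of the 9, 2 were higher in every Tamoxifen library, compared to 5.87% of all genes tested. Dbn1, the actin-binding drebrin that holds Cx43 at the membrane, was at 85.4 ± 16.3 CPM in the Tamoxifen group and 28.7 ± 20.5 CPM in the vehicle group, with a log2 difference of 1.58 ± 0.45 (± standard error; adjusted p = 0.197 in edgeR and 0.0358 in DESeq2). Tjp1, the scaffold ZO-1 that binds the tail of Cx43, was at 97.7 ± 24.4 and 48.7 ± 17.2 CPM, or 1.01 ± 0.30 as log2 fold change and standard error (adjusted p = 0.225 in edgeR and 0.0666 in DESeq2). Dbn1 and Tjp1 separated the groups, whereas Gja1, whose protein they bind, did not. Sgsm3, which binds Cx43 and promotes its turnover, was at 33.9, 28.8, 34.0 and 29.3 CPM in Tax2604, Tax2689, Tax2382 and Tax2455 and at 30.004, 19.0, 17.3 and 16.8 CPM in oil2453, oil2315, oil2653 and oil2368. Its groups overlapped through oil2453 (log2 difference 0.60 ± 0.24 standard error, adjusted p = 0.405 in edgeR).

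Regulators of the arterial state, in which Cx37 and Cx40 are made, were read from a list of 13 genes, 12 of them tested. EdgeR called 0 of the 12, and 7 were under an unadjusted p of 0.05. DESeq2 called 7, all higher with Tamoxifen, and 7 were higher in every Tamoxifen library. Over all genes tested these shares were, in the same order, 0%, 10.9%, 3.97% and 5.87%. Their median log2 fold change was 1.80, compared to -0.03 for all genes tested, and -0.71 and -0.43 when scaled to pan-endothelial and mural markers, compared to -2.59 and -2.33 for all genes. The endothelial receptor Notch4 lay at 220, 109, 235 and 111 CPM in Tax2604, Tax2689, Tax2382 and Tax2455 and at 69.2, 12.6, 18.5 and 40.1 CPM in oil2453, oil2315, oil2653 and oil2368 (log2 fold change 2.26 ± 0.54 standard error, adjusted p = 0.131 in edgeR and 0.00265 in DESeq2). The receptor Notch1 had one of 2.0 ± 0.52 (adjusted p = 0.159 in edgeR and 0.00678 in DESeq2), from 32.6 ± 21.4 to 130 ± 58.8 CPM. Efnb2, the ephrin-B2 ligand of arterial endothelium, had one of 1.60 ± 0.42 (adjusted p = 0.163 in edgeR and 0.0158 in DESeq2), from 28.9 ± 13.7 to 87.8 ± 41.8 CPM. The pan-endothelial markers were higher alongside, with a median log2 fold change of 2.17 over the 12, and the part of these marker levels in the values of single regulators was not tested.

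**Figure D5:**
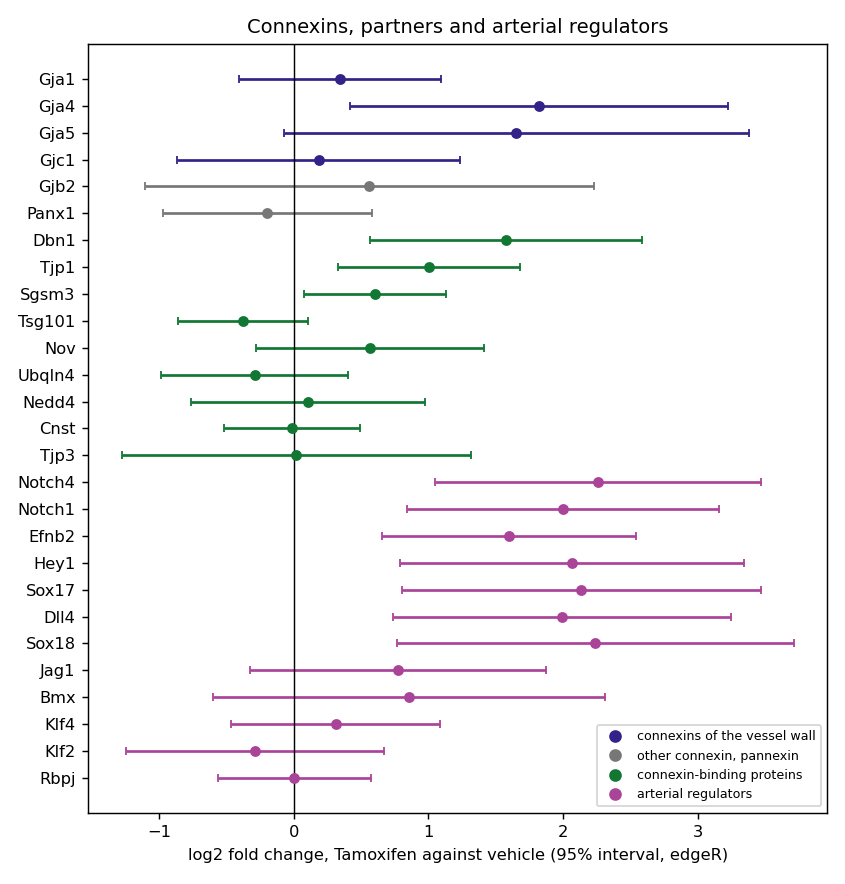
Log2 fold change of Tamoxifen against vehicle from edgeR with its 95% interval, for the 4 connexins, the tested other connexin and pannexin, the 9 connexin-binding proteins and the 12 tested arterial regulators, ordered within the last lists by p. None passed the adjusted threshold. Gja4 (1.82) and Gja5 (1.65) lie among the higher values, above Gja1 (0.34) and Gjc1 (0.18), and the intervals of these 4 genes overlap.

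To describe how the members varied within the groups, each gene's log2 deviations from its group means were correlated over the 8 libraries, as a description without a test. Gja4 and Gja5 deviated together, with Pearson's r of 0.76, whereas Gja1 ran against both, with r of -0.52 to Gja4 and -0.65 to Gja5. Gjc1 had r of 0.49 to Gja1, -0.11 to Gja4 and -0.51 to Gja5. With the mean deviation of the arterial regulators, r was 0.38 for Gja4 and 0.21 for Gja5. With the mural markers it was 0.90 and 0.63, with the lymphocyte markers 0.71 and 0.78, and with the pan-endothelial markers 0.61 and 0.22. The points share library depth and cell content. Over all genes tested, the 3 most like Gja1 were Amotl1, an angiomotin-like protein of cell junctions (r = 0.994), Tanc1 (0.992) and Nfya, a subunit of the CCAAT-binding factor (0.986). Those most like Gja4 were Hspa12a (0.975), Spats2l (0.966) and Cox4i2, a cytochrome c oxidase subunit isoform (0.965). St8sia6, a sialyltransferase (0.987), Abracl (0.981) and the serine protease Hpn (0.976) were most like Gja5. Medag (0.996), Ociad2 (0.996) and 3300005D01Rik (0.996) were most like Gjc1. These are the highest of 14539 values each, over 8 libraries.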

How the data were processed

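RNA sequencing libraries of tumor endothelial cells from 4 Tamoxifen and 4 vehicle mice were analysed, grouped by their labels. The authors removed adapter, poly-N and low quality reads and deposited whole-number read counts per gene, made with HTSeq 0.6.1. Bowtie2 2.2.3, TopHat2 2.0.12 and a build mm8 stand in the submitters' processing notes, whereas the table's positions are those of GRCm38 for these genes. The deposited FPKM values were computed by the authors from gene length and read count, and the table lists a gene length in bases. How that length was derived and whether counting used strand are not given in these sources. The deposited group means, log2 fold changes, p-values and adjusted p-values are the authors' own comparison and were not used.

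Counts were fitted in R 4.3.3 with edgeR 4.0.16 (TMM, filter at a minimum count of 10, quasi-likelihood test, 1 term for the group) and the p-values of all 14539 genes tested were adjusted after Benjamini-Hochberg, with calls at 0.05. CPM are counts scaled to the effective library size. Single values went through an exact permutation test (two-sided, 70 assignments). Log2 ratios used a pseudocount of 0.5 CPM. DESeq2 1.42.0, limma 3.58.1 (voom, and trend on log2 FPKM), other scalings and filters and leaving out each library were the alternatives. Scripts were tested on simulated data. At 19730726 to 24884372 counts per library, precision is set by the spread between libraries (biological coefficient of variation 0.441). Each library is taken as 1 mouse.

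Members and gene lists were chosen with earlier results of these data known. The text names the 4 members, every other connexin and pannexin above the filter, the 3 genes of the binding and arterial lists with the smallest p (none was called), the 3 genes most like each member, Ppard, and Pecam1, Cdh5, Pdgfrb, Acta2 and Lyz2 as checks of the isolates. Motifs were searched in 32851 RefSeq promoters. One gene of the list of connexin-binding proteins is not reported here and is left out of that list's counts.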

Additional observations from a re-analysis of the deposited data

Results flagged for a closer look

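Groups of 4 libraries were checked with Dixon's ratio of gap to range. In 4 of 42 groups, 1 library was farther from the other 3 than its 95% critical value. Chance flags about 1 in 20 independent groups. These groups share libraries, members and marker means, so the number flagged cannot be set against that share. Gjc1 in the vehicle library oil2453 was at 33.6 CPM, with the other 3 vehicle libraries at 13.1 to 13.8 CPM. Ppard in the Tamoxifen library Tax2689 was at 70.8 CPM, with the others at 118 to 122 CPM. Relative to the pan-endothelial markers, Gja1 in the vehicle library oil2315 stood at 5.08 log2 units, with the others at 2.77 to 2.93. On the same scale Gja5 in the vehicle library oil2453 stood at -6.21 log2 units, with the others at -3.56 to -3.20.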

How the results depend on the processing

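No connexin was called under any alternative except those that scale to vessel cell markers. Scaling to pan-endothelial markers moved the median log2 fold change of all genes to -2.59 and scaling to mural markers to -2.33, from -0.03, and called 13209 and 13343 genes. Under them the log2 fold changes were -2.21 (adjusted p = 0.00471) and -2.06 (0.00158) for Gja1, -0.23 and -0.0063 for Gja4, -0.51 and -0.23 for Gja5, and -1.96 (0.0134) and -2.12 (0.00093) for Gjc1. Relative to those medians Gja1 was 0.38 and 0.27 higher, Gja4 2.35 and 2.32, Gja5 2.08 and 2.10 and Gjc1 0.62 and 0.21. Scaling to fibroblast markers, chosen after seeing the data, moved the median to 0.46, and Gjc1 was then at -0.34 relative to it.

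The number of genes called was 177 with library size alone, 574 with DESeq2, 68 without the filter, 317 on log2(FPKM + 1) and 221 on log2(FPKM + 0.1), and the cause was not tested. Leaving out each library gave 0 to 256 genes (256 without oil2453, 31 without oil2368). It gave log2 fold changes of 0.14 to 0.54 for Gja1, 1.45 to 2.18 for Gja4, 1.10 to 2.31 for Gja5 and -0.15 (without Tax2455) to 0.65 for Gjc1. The lowest adjusted p of Gja4 was 0.0767, from DESeq2, and its highest was 0.993.

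Small differences changed sign. Gja1 to Gjc1 was -0.054 to 0.48 over the left-out libraries. Gja4 relative to pan-endothelial markers was 0.028 with a pseudocount of 0.1 CPM, and -0.61 to 0.22 over the left-out libraries, being 0.22 without oil2653 and 0.020 without Tax2604. Relative to mural markers it was -0.035 with a pseudocount of 2 CPM and -0.18 to 0.35 over the left-out libraries, -0.18 without oil2315 and -0.021 without Tax2382. Gja5 relative to mural markers was -0.70 to 0.033, positive without Tax2455. The lower Gja1 and Gjc1 relative to both marker lists held in sign under all 11 alternatives each. With 10 counts required in each library Gja5 was not tested, as oil2453 has 9. No paired analysis was possible because the groups share no replicate numbers.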
